A study of Mus musculus with 9 samples.

Results

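The Hox cluster genes were taken as every probe set of the array annotated to 1 gene symbol made of Hoxa, Hoxb, Hoxc or Hoxd and a number, with the probe set of the highest mean kept for each gene. The rule found 37 of the 19935 genes measured, with 10 in the Hoxa cluster and 9 each in the Hoxb, Hoxc and Hoxd clusters, and each had a single probe set. Hoxb8 was not analysed here, and a probe set annotated to both Hoxb8 and Hoxb7 was not used. Expression was measured on Affymetrix Mouse Gene 1.0 ST arrays in NIH 3T3 cells, an established mouse embryonic fibroblast line. The 3 groups were cells stably carrying an shRNA against Net, cells stably carrying an shRNA against Sap-1, and control cells stably carrying the pLKO.1 control vector. Net and Sap-1 are ETS transcription factors of the ternary complex family, encoded by Elk3 and Elk4, which bind with serum response factor at serum-induced genes. All cells were left on fibronectin for 2 h, kept without serum overnight and then given bovine serum for 1 h, at 10% in the sample protocol and 20% in the series text. No unstimulated cells were included, so every level given here is a level after serum. Each group had 3 biological replicates with 1 array each. The labels do not say how many stable lines or clones made up a group, and the p-values measure the spread between these arrays, whose number limits the precision.

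Hox genes encode homeodomain transcription factors and lie in 4 chromosomal clusters. Their order along a cluster follows the order of the body regions they pattern from head to tail, so low numbers stand for anterior genes and high numbers for posterior ones. Genes of the same number in different clusters are paralogs. Fibroblasts keep a Hox pattern that reflects the body site they came from, and the pattern is held by Polycomb and Trithorax chromatin complexes.

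The targeted genes were read first. Elk3 had log2 levels of 11.06, 11.08 and 11.10 in Net shRNA cells, 11.37, 11.40 and 11.38 in Sap-1 shRNA cells and 11.48, 11.52 and 11.52 in control cells. Elk4 had 10.58, 10.66 and 10.64 in Net shRNA cells, 9.50, 9.54 and 9.55 in Sap-1 shRNA cells and 11.03, 11.05 and 11.13 in control cells. Each targeted gene was lowest in the cells carrying its own shRNA: on the log2 scale against control, Elk3 fell by 0.42 in Net shRNA cells and Elk4 fell by 1.54 in Sap-1 shRNA cells. Elk4 also fell by 0.44 in Net shRNA cells (limma, adjusted p = 2.3e-05), and Elk3 fell by 0.12 in Sap-1 shRNA cells (adjusted p = 0.023). Array medians lay between 7.47 and 7.54, and arrays correlated at 0.9981 to 0.9992 within a group and at 0.9879 or more between groups, across genes. Of 15 fibroblast markers, 14 lay above the range of olfactory receptor genes defined in the next paragraph and Fap did not. Each list of another cell type had members within that range. Among them were Ptprc and Adgre1 for macrophages, Epcam for epithelium, and Pecam1 and Kdr for endothelium. Adipoq for adipocytes, Myog for muscle and Stmn2 for neurons lay there too. The fibroblast list averaged 11.93 to 11.98 on the Net shRNA arrays, 11.74 on each Sap-1 shRNA array and 11.98 to 12.03 on the control arrays. Of its 15 genes 0 rose and 4 fell in Net shRNA cells and 0 rose and 7 fell in Sap-1 shRNA cells, where Pdgfra, a receptor for platelet-derived growth factor, fell by 1.74. Among all genes above that range, 19.2% rose and 14.6% fell in Net shRNA cells and 22.6% rose and 19.1% fell in Sap-1 shRNA cells. In the other lists the markers above the range were 5 of 8 for neurons, 7 of 10 for muscle, 4 of 8 for adipocytes, 6 of 10 for endothelium, 7 of 11 for epithelium and 4 of 11 for macrophages. Of these, Tek of endothelium rose by 1.84 in Net shRNA cells and fell by 0.30 in Sap-1 shRNA cells. Cdh5, also endothelial, rose by 0.84 in Sap-1 shRNA cells, and Cdh1 of epithelium rose by 0.38 in Net shRNA cells. Map2 of neurons fell by 1.60 in Net shRNA cells and rose by 0.76 in Sap-1 shRNA cells. The endothelial list averaged 7.25 to 7.33 on the Net shRNA arrays, 7.15 to 7.20 on the Sap-1 shRNA arrays and 6.99 to 7.03 on the control arrays, and the neuronal list averaged 6.91 to 6.96, 7.21 to 7.24 and 7.16 to 7.24 on the same groups of arrays. The part of these marker differences in the Hox results was not tested.

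Values are log2 levels after robust multi-array averaging (RMA), a method that corrects background, equalises the distributions of the arrays and summarises the probes of a gene. The deposited table carries no detection calls, and RMA compresses the differences of dim probe sets. As a guide to dim signal, the 95th percentile of 1027 olfactory receptor genes, which fibroblasts are not known to use, was 6.87 in Net shRNA, 6.81 in Sap-1 shRNA and 6.87 in control cells. At least 1 group mean lay above it for 24 of the 37 Hox genes and for 13373 of all 19935 genes. By cluster these were 7 of 10 Hoxa, 7 of 9 Hoxb, 4 of 9 Hoxc and 6 of 9 Hoxd genes. By position they were 6 of 7 anterior genes (paralog groups 1 to 3), 11 of 14 central genes (groups 4 to 8) and 7 of 16 posterior genes (groups 9 to 13). The other 13 were Hoxa9, Hoxa11, Hoxa13, Hoxb4, Hoxb5, Hoxc8, Hoxc10, Hoxc11, Hoxc12, Hoxc13, Hoxd1, Hoxd12 and Hoxd13, and none of these was called in any comparison in the fit reported here. Probe sets differ in affinity, so levels were not ranked between genes. In control cells the 37 means ran between 5.83 (Hoxc11) and 9.89 (Hoxa7) with a median of 7.23.

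**Figure D1:**
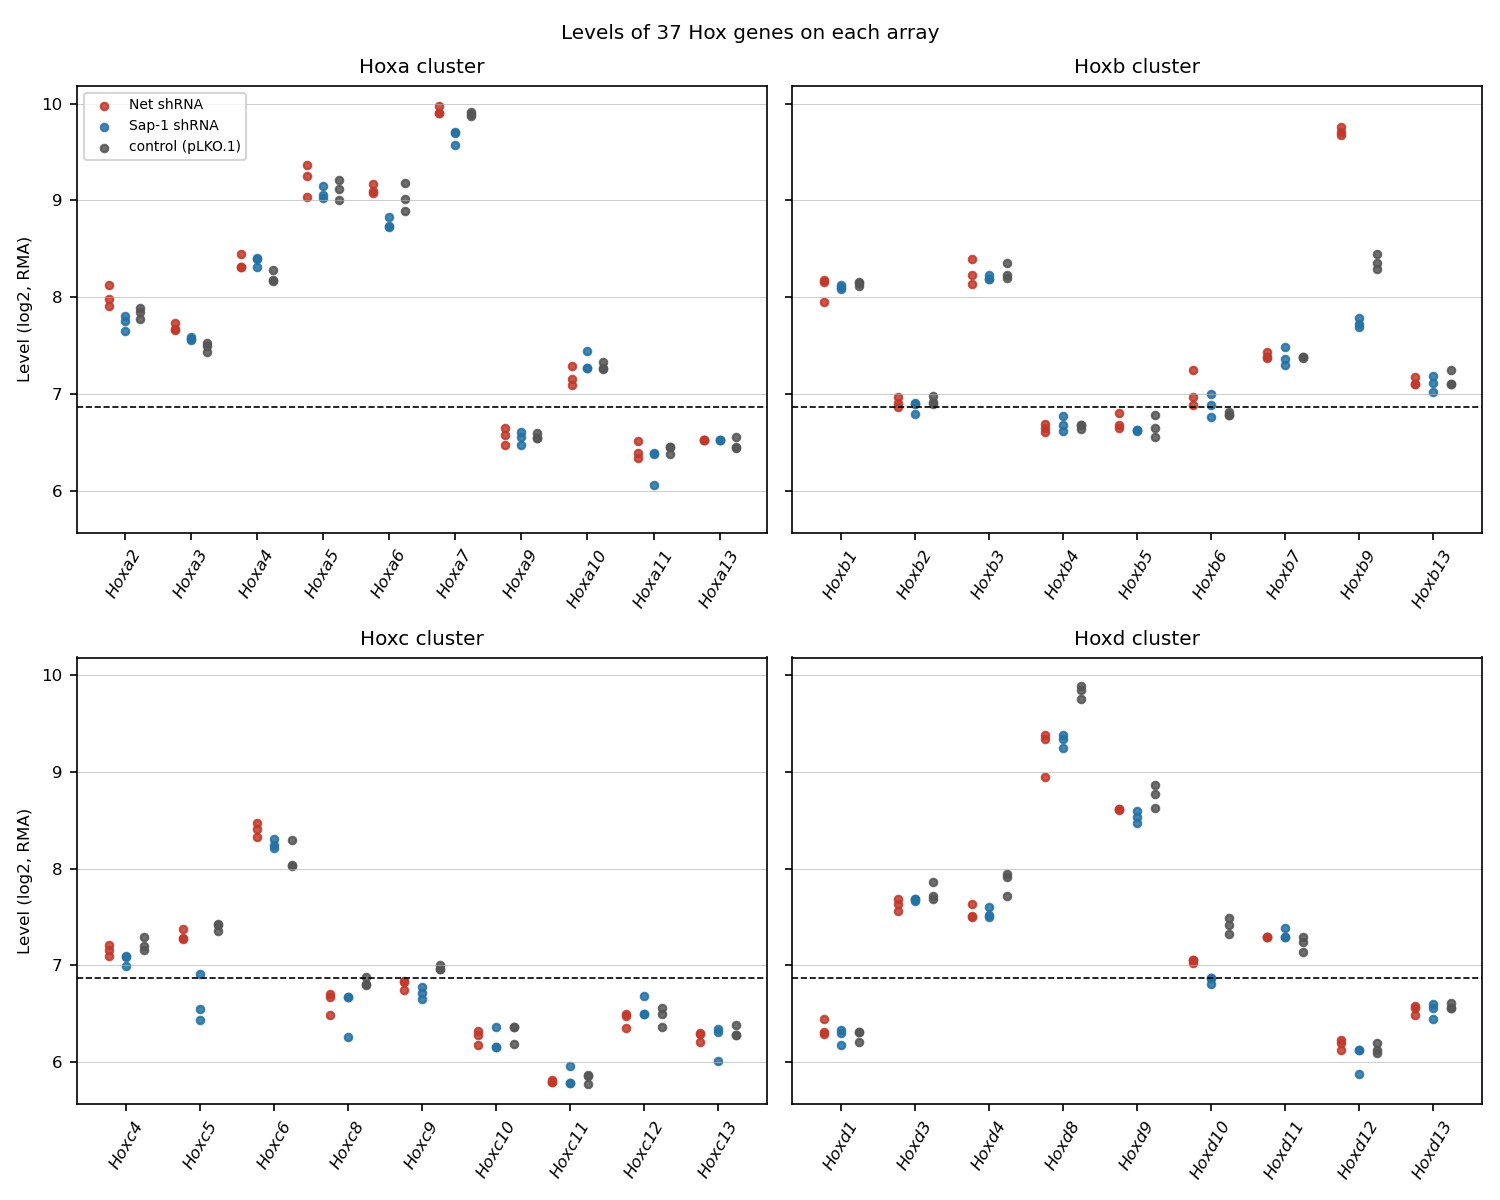
Log2 RMA level of each of the 37 Hox genes on each array, in 1 panel per cluster with genes in order of paralog number, for Net shRNA (red, left), Sap-1 shRNA (blue, middle) and control cells (grey, right); each dot is 1 array and the dashed line is the 95th percentile of olfactory receptor genes in control cells (6.87). Hoxb9 separates into 3 levels, and Hoxd8 and Hoxd10 lie lower in both knockdowns than in control.

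A gene was called where limma's moderated test gave an adjusted p under 0.05 over all 19935 genes. In Net shRNA cells against control, 3 of the 37 Hox genes rose (Hoxa3, Hoxb9, Hoxc6) and 4 fell (Hoxc9, Hoxd4, Hoxd8, Hoxd10), 18.9% of them, where 23.6% of all genes were called. In Sap-1 shRNA cells against control, 1 rose (Hoxa4) and 10 fell (Hoxa6, Hoxa7, Hoxb9, Hoxc4, Hoxc5, Hoxc9, Hoxd4, Hoxd8, Hoxd9, Hoxd10), 29.7% of them, where 29.7% of all genes were called. Among genes above the olfactory receptor range, 29.2% of 24 Hox genes and 33.7% of all genes were called in Net shRNA cells, 45.8% and 41.7% in Sap-1 shRNA cells, and 25% and 38.8% in the direct comparison. These shares describe the genes that passed that filter, and no difference from the background was tested. The direction was less even: 27% of Hox genes and 13.9% of all genes fell in Sap-1 shRNA cells, and 2.7% of Hox genes and 15.8% of all genes rose. In Net shRNA cells 10.8% of Hox genes and 10.2% of all genes fell, and 8.11% of Hox genes and 13.4% of all genes rose. The median Hox difference was -0.02 for the Net shRNA, where that of all genes was -0.00, and -0.06 for the Sap-1 shRNA, where that of all genes was -0.02. In the direct comparison of Net shRNA with Sap-1 shRNA cells, 6 Hox genes were higher in Net shRNA cells (Hoxa2, Hoxa6, Hoxa7, Hoxb9, Hoxc5, Hoxd10) and 0 lower, 16.2% of them against 27.5% of all genes called. The median Hox difference there was 0.05, and that of all genes was 0.02.

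These splits moved with the scaling. With arrays centred on their medians, 5 Hox genes rose and 4 fell in Net shRNA cells. With quantile normalization and with cyclic loess, 3 rose and 9 fell in Sap-1 shRNA cells. Under all 3 of these scalings the direct comparison gave 6 Hox genes higher and 1 lower (Hoxa10) in Net shRNA cells. Both knockdowns were set against the same 3 control arrays, so their differences are given side by side and not as independent results.

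Few Hox differences were large. A change of at least 1.5-fold was met in Net shRNA cells by Hoxb9 (higher) and Hoxd8 (lower), where 2.56% of all genes met it, and in Sap-1 shRNA cells by Hoxc5 and Hoxb9 (both lower), where 4.46% did. It was met in the direct comparison by Hoxb9 and Hoxc5, where 4.64% of all genes did. For every Hox gene that was not called, the 95% confidence interval of the difference lay within 1.5-fold either way, 30 of 30 genes for Net shRNA against control, 26 of 26 for Sap-1 shRNA against control and 31 of 31 for the direct comparison. Over all genes not called, it did so for 15181 of 15221, 13988 of 14014 and 14425 of 14455 genes, so this is not particular to Hox genes. Since RMA compresses dim differences, such an interval does not show absence of change for Hox genes within the olfactory receptor range. The arrays of the 2 groups did not overlap for 12, 13 and 11 Hox genes in these 3 comparisons, or 32.4%, 35.1% and 29.7%, where the share of all genes was 34.3%, 41.0% and 37.4%. All 11 in the direct comparison were higher in Net shRNA cells.

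**Figure D2:**
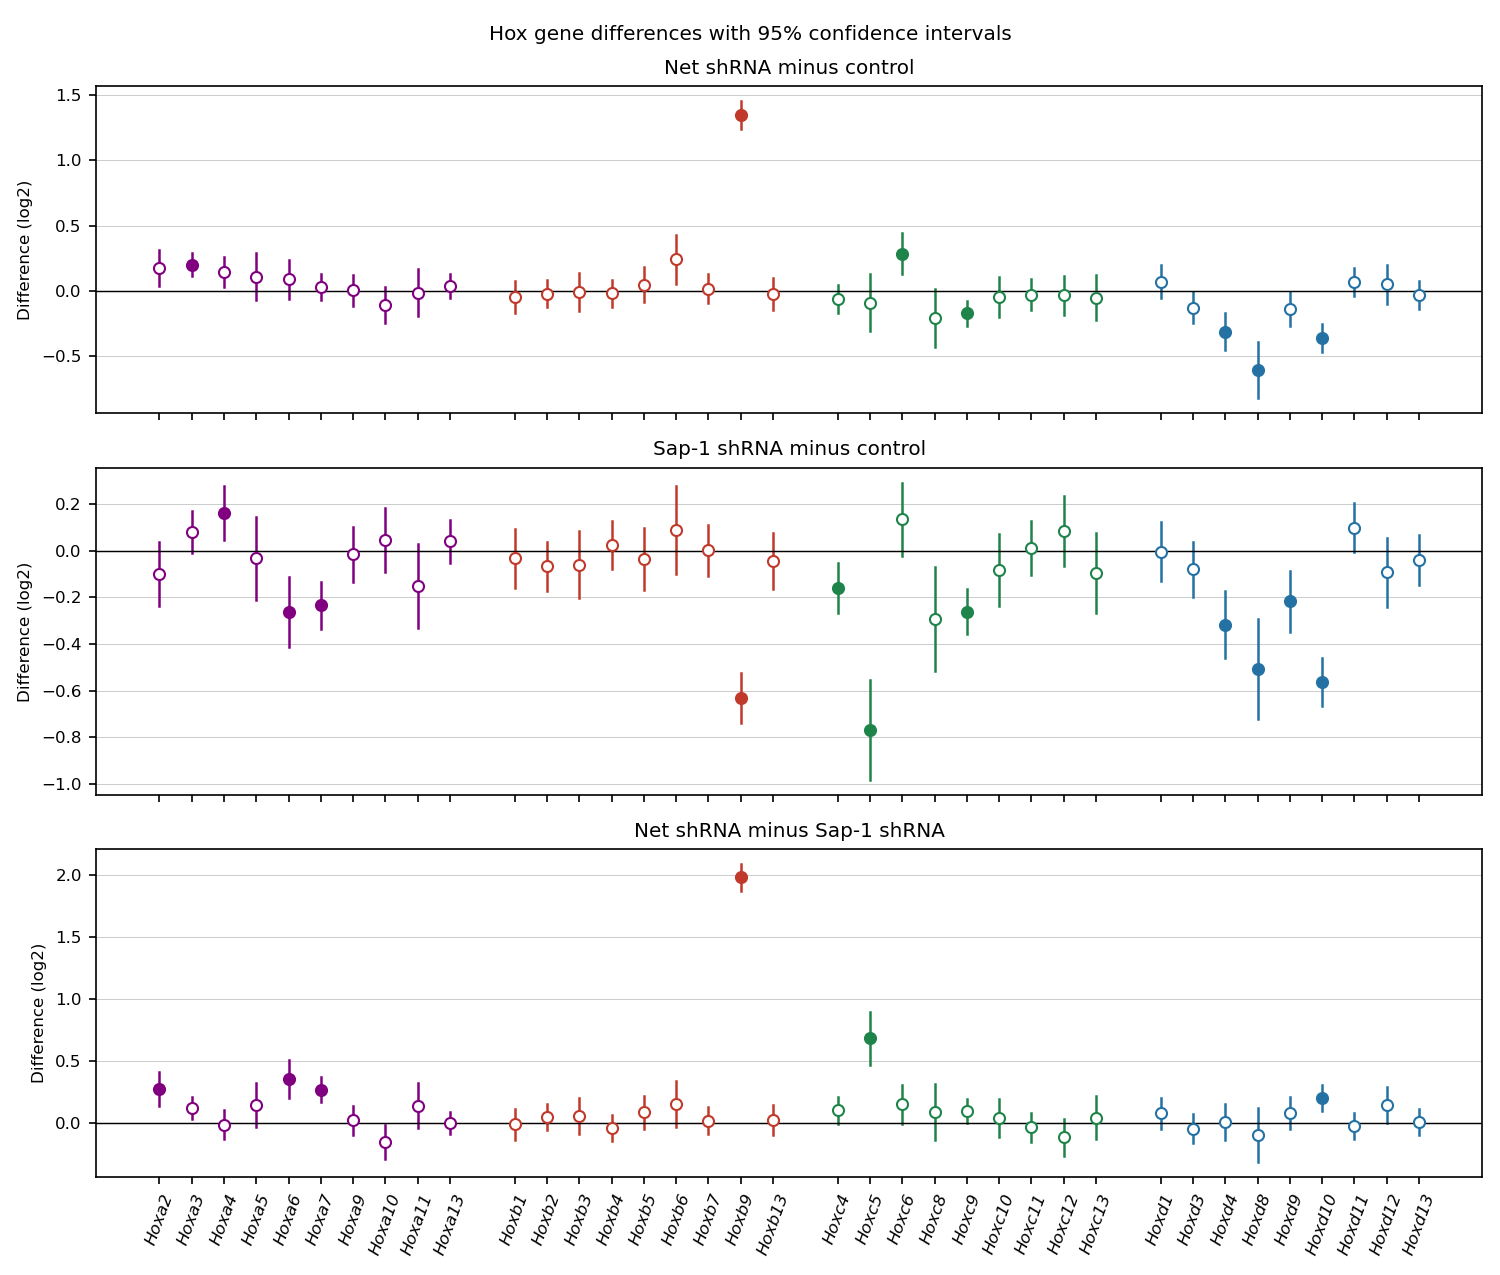
Log2 difference of each of the 37 Hox genes with its 95% confidence interval for Net shRNA minus control (top), Sap-1 shRNA minus control (middle) and Net shRNA minus Sap-1 shRNA (bottom), coloured by cluster; filled circles were called at an adjusted p under 0.05 and the vertical scales differ between panels. Hoxb9 stands at 1.35, -0.63 and 1.98 in the 3 panels, and the other Hox differences lie between -0.77 and 0.68.

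Hoxb9, a thoracic patterning gene of the Hoxb cluster, had the largest Hox difference of Net shRNA cells from control and of the direct comparison. Its level was 9.75, 9.71 and 9.67 on the Net shRNA arrays, 7.72, 7.78 and 7.69 on the Sap-1 shRNA arrays and 8.35, 8.29 and 8.44 on the control arrays. The 3 groups did not overlap, and the knockdowns lay on opposite sides of control. Hoxb9 was higher by 1.35 on the log2 scale in Net shRNA cells, or 2.54-fold (SE 0.05, adjusted p = 1.3e-08). It fell by 0.63 in Sap-1 shRNA cells, or 1.55-fold (adjusted p = 2.4e-06). The direct difference was 1.98, or 3.94-fold (95% interval 1.87 to 2.09, adjusted p = 2.8e-10), which placed Hoxb9 at rank 60 among all genes higher in Net shRNA cells. Hoxb9 was the only 1 of the 37 called in opposite directions in the 2 knockdowns. Since these are bulk cultures, a change in the share of cells that express a gene cannot be told apart from a change in the RNA per cell.

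No other gene of the Hoxb cluster was called. Hoxb1, which marks the fourth hindbrain segment, had 8.18, 7.95 and 8.15 in Net shRNA cells, 8.13, 8.11 and 8.09 in Sap-1 shRNA cells and 8.15, 8.12 and 8.15 in control cells. Hoxb2, a hindbrain gene, had 6.90, 6.97 and 6.86 in Net shRNA cells, 6.91, 6.89 and 6.79 in Sap-1 shRNA cells and 6.98, 6.92 and 6.89 in control cells. Hoxb3, a hindbrain and pharyngeal arch gene, had 8.40, 8.14 and 8.22 in Net shRNA cells, 8.22, 8.18 and 8.19 in Sap-1 shRNA cells and 8.22, 8.35 and 8.20 in control cells. In these 3 anterior genes the groups overlapped. Hoxb6, a thoracic gene, had 7.25, 6.97 and 6.89 in Net shRNA cells, 7.00, 6.89 and 6.76 in Sap-1 shRNA cells and 6.82, 6.78 and 6.78 in control cells. Its Net shRNA arrays all lay above its control arrays, with a difference of 0.24 that missed the threshold (95% interval 0.05 to 0.43, adjusted p = 0.067). It was called without Net shRNA replicate 3 (0.31, adjusted p = 0.031) and under the 3 other scalings (0.24 to 0.25, adjusted p = 0.022 to 0.041). Hoxb7, its neighbour, had 7.44, 7.38 and 7.37 in Net shRNA cells, 7.30, 7.48 and 7.36 in Sap-1 shRNA cells and 7.38, 7.38 and 7.37 in control cells. Hoxb13, the most posterior gene of the cluster and a prostate regulator, had 7.18, 7.11 and 7.11 in Net shRNA cells, 7.11, 7.19 and 7.03 in Sap-1 shRNA cells and 7.24, 7.11 and 7.11 in control cells. Hoxb7 and Hoxb13, the nearest measured Hox genes on either side of Hoxb9, thus overlapped in all 3 groups, with differences between -0.04 and 0.02.

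In the Hoxd cluster 3 genes fell in both knockdowns: Hoxd8, a gene of the trunk, Hoxd10, a gene of the lumbar spinal cord and limb, and Hoxd4, a gene of the cervical vertebrae. Their promoter sequences, the 250 bases before the start of the gene, are shown because these are the Hox genes of 1 cluster that fell in both knockdowns. They are RefSeq sequences of build GRCm38.p6 on the + strand, at chr2:74721728-74721977 for Hoxd4, chr2:74704365-74704614 for Hoxd8 and chr2:74691641-74691890 for Hoxd10. Capitals mark the homeodomain core TAAT, read on both strands.
Hoxd4: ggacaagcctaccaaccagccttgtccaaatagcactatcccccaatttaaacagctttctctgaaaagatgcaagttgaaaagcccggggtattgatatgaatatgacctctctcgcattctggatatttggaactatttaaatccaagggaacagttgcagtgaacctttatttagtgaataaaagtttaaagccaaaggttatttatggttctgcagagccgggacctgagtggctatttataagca
Hoxd8: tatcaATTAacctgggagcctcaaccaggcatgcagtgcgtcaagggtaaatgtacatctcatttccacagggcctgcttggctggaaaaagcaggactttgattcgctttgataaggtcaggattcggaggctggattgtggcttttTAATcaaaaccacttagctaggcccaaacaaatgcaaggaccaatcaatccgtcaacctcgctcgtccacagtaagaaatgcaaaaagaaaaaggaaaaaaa
Hoxd10: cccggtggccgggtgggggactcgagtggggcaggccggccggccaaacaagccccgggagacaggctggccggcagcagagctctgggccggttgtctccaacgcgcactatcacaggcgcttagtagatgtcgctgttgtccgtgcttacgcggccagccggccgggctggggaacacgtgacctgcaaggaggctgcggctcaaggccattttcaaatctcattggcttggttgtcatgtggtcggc
The windows were 40.4% G and C for Hoxd4, 44.4% for Hoxd8 and 65.6% for Hoxd10. The core TAAT was found 2 times for Hoxd8 and not for the others. None of the 3 windows held the longer ETS motif CCGGAA, the CArG box bound by serum response factor or the Hox and Pbx motif TGATNNAT. Each was searched on both strands. The shorter ETS core GGAA stands in each of the 3 windows and was not counted over all promoters. TAAT can lie within a CArG box or a TGATNNAT match. Promoters were given for 21 of the 37 Hox genes, 23 windows in all. CCGGAA was in 1 of these 23 (Hoxa10) and in 12.0% of all 32851 promoters, the CArG box in 0 and in 1.47%, TGATNNAT in 3 (Hoxa2, Hoxb1, Hoxd11) and in 7.68%, and TAAT in 17 and in 54.9%. These matches describe letters in short windows and say nothing of binding.

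Hoxd8 had 8.94, 9.38 and 9.34 on the Net shRNA arrays, 9.25, 9.34 and 9.38 on the Sap-1 shRNA arrays and 9.75, 9.85 and 9.89 on the control arrays. All 6 knockdown arrays lay below all 3 control arrays. Hoxd8 fell by 0.61 in Net shRNA cells (SE 0.10, adjusted p = 0.00093) and by 0.51 in Sap-1 shRNA cells (SE 0.10, adjusted p = 0.0021). The direct difference was -0.10 (95% interval -0.32 to 0.12). Hoxd10 had 7.06, 7.03 and 7.06 in Net shRNA cells, 6.80, 6.87 and 6.87 in Sap-1 shRNA cells and 7.49, 7.42 and 7.32 in control cells. The 3 groups did not overlap. Hoxd10 fell by 0.36 in Net shRNA cells (adjusted p = 0.00023) and by 0.56 in Sap-1 shRNA cells (adjusted p of 5.0e-06), and was higher by 0.20 in Net shRNA than in Sap-1 shRNA cells (adjusted p = 0.0074). Its knockdown levels were close to the olfactory receptor range. Hoxd4 had 7.63, 7.50 and 7.51 in Net shRNA cells, 7.61, 7.52 and 7.50 in Sap-1 shRNA cells and 7.92, 7.71 and 7.94 in control cells. Both knockdowns lay below control without overlap. Hoxd4 fell by 0.31 in Net shRNA cells (adjusted p = 0.0045) and by 0.32 in Sap-1 shRNA cells (adjusted p = 0.0031), with a direct difference of 0.00 (95% interval -0.14 to 0.15).

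The genes between and beside these did not all move. Hoxd9, a gene of the lumbar region and forelimb, had 8.61, 8.62 and 8.61 in Net shRNA cells, 8.54, 8.47 and 8.59 in Sap-1 shRNA cells and 8.62, 8.86 and 8.77 in control cells. It fell by 0.22 in Sap-1 shRNA cells (adjusted p of 0.016) and stood at -0.14 in Net shRNA cells (adjusted p = 0.13). The Sap-1 shRNA call was lost without control replicate 2 (-0.16, adjusted p = 0.065), control replicate 3 (-0.21, adjusted p = 0.054) or Sap-1 shRNA replicate 2 (-0.19, adjusted p = 0.069). It was also lost with arrays centred on their medians (-0.19, adjusted p = 0.051). The Net shRNA arrays all lay below the control arrays. The Net shRNA difference was called without control replicate 1 (-0.20, adjusted p = 0.018). With all 9 arrays it was called under quantile normalization (-0.16, adjusted p = 0.0445) and array weights (-0.17, adjusted p = 0.032). Taking off the deviation of neighbouring genes also gave this call (-0.17, adjusted p = 0.045). Hoxd3, a gene of the upper cervical vertebrae, had 7.56, 7.68 and 7.64 in Net shRNA cells, 7.68, 7.68 and 7.66 in Sap-1 shRNA cells and 7.72, 7.68 and 7.87 in control cells, with overlapping groups and no call in the fit reported. With the deviation of neighbouring genes taken off, it was called lower in Net shRNA cells (-0.16, adjusted p = 0.043). Hoxd11, a forearm and kidney gene, had 7.30, 7.29 and 7.29 in Net shRNA cells, 7.29, 7.39 and 7.29 in Sap-1 shRNA cells and 7.29, 7.24 and 7.14 in control cells, again with no call in the fit reported. It was called higher in Sap-1 shRNA cells under quantile normalization (0.14, adjusted p = 0.033), cyclic loess (0.13, adjusted p = 0.043) and array weights (0.13, adjusted p = 0.045). Hoxd1, Hoxd12 and Hoxd13 lay within the olfactory receptor range.

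**Figure D3:**
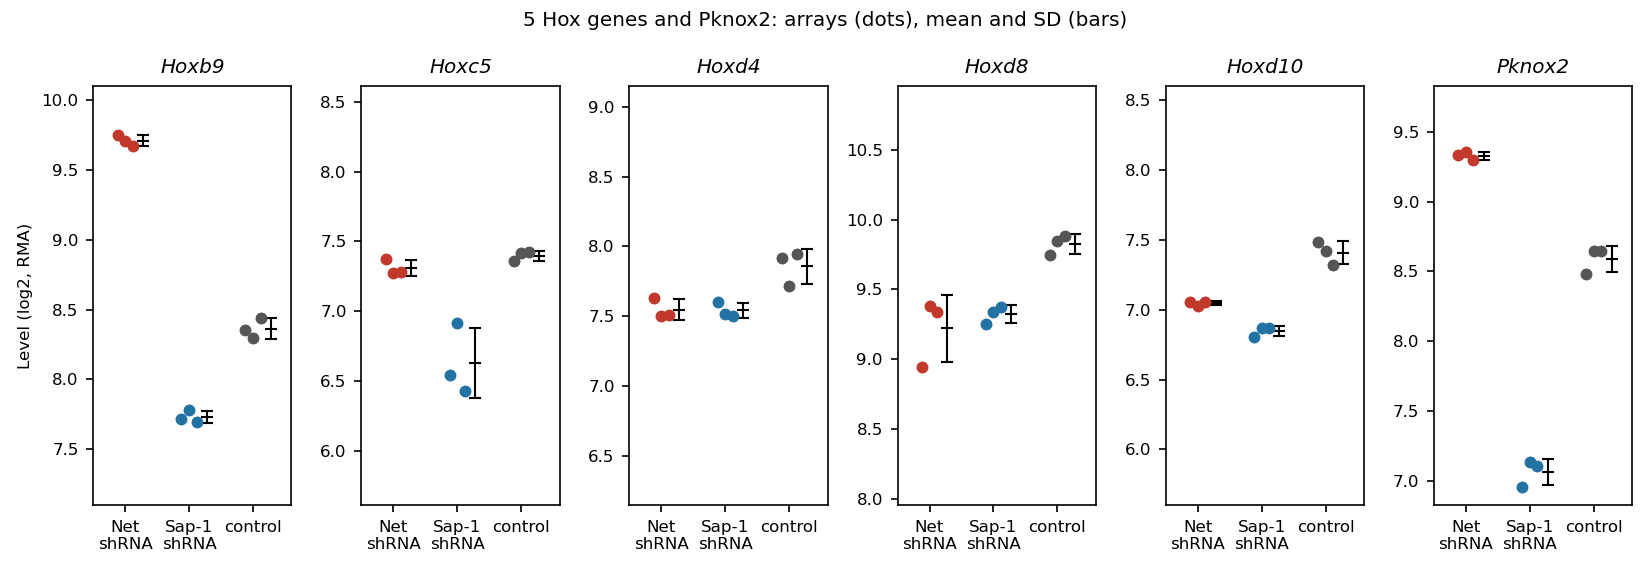
Log2 RMA level of Hoxb9, Hoxc5, Hoxd4, Hoxd8, Hoxd10 and the cofactor gene Pknox2 on each array (dots) with mean and SD (bars, n = 3), for Net shRNA, Sap-1 shRNA and control cells; each panel spans the same number of log2 units. Hoxb9 and Pknox2 are highest in Net shRNA and lowest in Sap-1 shRNA cells, Hoxc5 is low in Sap-1 shRNA cells, and Hoxd4, Hoxd8 and Hoxd10 lie lower in both knockdowns than in control.

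In the Hoxc cluster the largest difference was in Hoxc5, a cervical and upper thoracic gene. It had 7.37, 7.28 and 7.28 in Net shRNA cells, 6.55, 6.91 and 6.43 in Sap-1 shRNA cells and 7.36, 7.41 and 7.42 in control cells. The Sap-1 shRNA arrays lay below both other groups, and 2 of these 3 arrays lay within the olfactory receptor range. Hoxc5 fell by 0.77 in Sap-1 shRNA cells, or 1.70-fold (SE 0.10, adjusted p = 0.00011), and stood at -0.09 in Net shRNA cells (adjusted p = 0.62). It was higher by 0.68 in Net shRNA than in Sap-1 shRNA cells (adjusted p = 0.00030). Hoxc9, a thoracic gene that assigns motor neuron columns, had 6.84, 6.75 and 6.83 in Net shRNA cells, 6.71, 6.66 and 6.77 in Sap-1 shRNA cells and 6.96, 6.97 and 7.00 in control cells. Both knockdowns lay below control without overlap, at the upper edge of the olfactory receptor range. Hoxc9 fell by 0.26 in Sap-1 shRNA cells (adjusted p of 0.00083) and by 0.17 in Net shRNA cells (adjusted p = 0.015). The Net shRNA call was lost without control replicate 3 (-0.16, adjusted p = 0.053) or Net shRNA replicate 2 (-0.14, adjusted p = 0.058).

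Hoxc6, an upper thoracic gene, had 8.33, 8.47 and 8.41 in Net shRNA cells, 8.24, 8.31 and 8.21 in Sap-1 shRNA cells and 8.02, 8.30 and 8.04 in control cells. It rose by 0.29 in Net shRNA cells (adjusted p = 0.013), the opposite direction to Hoxc9 of the same cluster. That call was lost without control replicate 1 (0.24, adjusted p = 0.060), control replicate 3 (0.24, adjusted p = 0.058) or Net shRNA replicate 2 (0.25, adjusted p = 0.054). Without control replicate 2, Hoxc6 was also called higher in Sap-1 shRNA cells (0.22, adjusted p of 0.012) and in Net shRNA over Sap-1 shRNA cells (0.15, adjusted p = 0.048). Hoxc4, a cervical gene, had 7.10, 7.21 and 7.16 in Net shRNA cells, 7.08, 7.00 and 7.09 in Sap-1 shRNA cells and 7.29, 7.20 and 7.16 in control cells. It fell by 0.16 in Sap-1 shRNA cells (adjusted p = 0.028). This fall no longer passed without control replicate 1 (adjusted p = 0.11), control replicate 2 (adjusted p = 0.057) or Sap-1 shRNA replicate 2 (adjusted p = 0.11), and under the 3 other scalings. Hoxc8, a gene of the thoracolumbar boundary, had group means within the olfactory receptor range, with levels of 6.26 to 6.71 on the knockdown arrays and 6.80 to 6.88 on the control arrays. Its difference was -0.29 in Sap-1 shRNA cells (adjusted p of 0.052) and -0.21 in Net shRNA cells (adjusted p = 0.19). The call turned on single arrays and on the model: without Sap-1 shRNA replicate 1 or 2 it was called in Sap-1 shRNA cells (-0.36 each, adjusted p = 0.036 and 0.038), and without Sap-1 shRNA replicate 3 in Net shRNA cells (adjusted p = 0.029). With all 9 arrays it was called in Sap-1 shRNA cells under trended and robust variances (adjusted p = 0.041), the replicate block (adjusted p = 0.025) and neighbour removal (-0.35, adjusted p = 0.014), and in Net shRNA cells under array weights (adjusted p = 0.040). The posterior genes Hoxc10 to Hoxc13 lay between 5.78 and 6.68 on all arrays.

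The Hoxa differences were small. Hoxa7, a thoracic gene, had 9.90, 9.90 and 9.97 in Net shRNA cells, 9.69, 9.71 and 9.57 in Sap-1 shRNA cells and 9.87, 9.91 and 9.90 in control cells. Its Sap-1 shRNA arrays lay below both other groups. Hoxa7 fell by 0.23 in Sap-1 shRNA cells (adjusted p of 0.0023) and was higher by 0.27 in Net shRNA than in Sap-1 shRNA cells (adjusted p = 0.0010). Its neighbour Hoxa6, also thoracic, had 9.08, 9.10 and 9.17 in Net shRNA cells, 8.74, 8.72 and 8.83 in Sap-1 shRNA cells and 9.01, 9.18 and 8.89 in control cells. It followed the same order, lower by 0.26 in Sap-1 shRNA cells than in control (difference -0.26, adjusted p = 0.012) and higher by 0.35 in Net shRNA than in Sap-1 shRNA cells (adjusted p = 0.0022). Hoxa5, a gene of lung and cervical vertebrae that lies next to Hoxa6, had 9.04, 9.37 and 9.25 in Net shRNA cells, 9.02, 9.06 and 9.15 in Sap-1 shRNA cells and 9.12, 9.21 and 9.0 in control cells, with overlapping groups. It was called in the direct comparison only without Net shRNA replicate 1 (0.23, adjusted p = 0.033) among the fits that left out 1 array.

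Toward the anterior end of the cluster, Hoxa3 and Hoxa4 were each called higher against control in 1 knockdown in the fit reported. Hoxa3, a gene of the third pharyngeal arch, had 7.73, 7.66 and 7.67 in Net shRNA cells, 7.56, 7.58 and 7.56 in Sap-1 shRNA cells and 7.53, 7.50 and 7.44 in control cells. The groups did not overlap, and Hoxa3 rose by 0.20 in Net shRNA cells (adjusted p = 0.0038). Under quantile normalization and cyclic loess, Hoxa3 was also called higher in Sap-1 shRNA cells (0.11 each, adjusted p = 0.0375 and 0.042). Its difference in the direct comparison was 0.12 (adjusted p = 0.0503), which passed without control replicate 1 (adjusted p = 0.048) or control replicate 3 (adjusted p = 0.047). Hoxa4, a cervical gene, had 8.44, 8.31 and 8.31 in Net shRNA cells, 8.39, 8.41 and 8.31 in Sap-1 shRNA cells and 8.28, 8.16 and 8.18 in control cells. It rose by 0.16 in Sap-1 shRNA cells (adjusted p of 0.040) and stood at 0.14 in Net shRNA cells (adjusted p = 0.075). The Sap-1 shRNA call was lost without control replicate 2, control replicate 3, Net shRNA replicate 3, Sap-1 shRNA replicate 1 or Sap-1 shRNA replicate 2 (adjusted p = 0.0507 to 0.132, differences of 0.14 to 0.16), with trended and robust variances (adjusted p = 0.0506) and with every probe set tested (adjusted p = 0.0513), and without control replicate 1 the Net shRNA difference was called (0.18, adjusted p = 0.045). Hoxa2, a gene of the second pharyngeal arch, had 7.91, 7.99 and 8.13 in Net shRNA cells, 7.65, 7.80 and 7.75 in Sap-1 shRNA cells and 7.77, 7.89 and 7.84 in control cells. Only its direct difference was called, 0.27 higher in Net shRNA than in Sap-1 shRNA cells (adjusted p of 0.0063), which shrank to 0.16 when the deviation of neighbouring genes was taken off (adjusted p = 0.039). Without Net shRNA replicate 1 the difference from control was called too (0.22, adjusted p = 0.028). Hoxa10, a gene of the uterus and lumbar vertebrae, had 7.29, 7.15 and 7.09 in Net shRNA cells, 7.45, 7.27 and 7.27 in Sap-1 shRNA cells and 7.33, 7.26 and 7.27 in control cells. Its direct difference of -0.15 missed the threshold (adjusted p = 0.10) and was called without Net shRNA replicate 1 (-0.21, adjusted p = 0.030).

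By position, calls were counted beside the number of genes in each class. In Net shRNA cells 1 of 7 anterior genes rose, 1 of 14 central genes rose and 2 fell, and 1 of 16 posterior genes rose and 2 fell. In Sap-1 shRNA cells 0 of 7 anterior genes were called, 1 of 14 central genes rose and 6 fell, and 4 of 16 posterior genes fell. The share called in either direction was 14.3% of anterior, 21.4% of central and 18.8% of posterior genes in Net shRNA cells, beside 23.6% of all genes, and 0%, 50% and 25% in Sap-1 shRNA cells, beside 29.7% of all genes. By cluster, the genes that fell numbered 0 Hoxa, 0 Hoxb, 1 Hoxc and 3 Hoxd in Net shRNA cells and 2 Hoxa, 1 Hoxb, 3 Hoxc and 4 Hoxd in Sap-1 shRNA cells. Within paralog group 9, Hoxb9 rose in Net shRNA cells, Hoxc9 fell, and Hoxd9 and Hoxa9 were not called in the fit reported. Differences between these classes were not tested.

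The genes next to each cluster were read to see whether a whole stretch of chromosome moved. They were the 5 measured genes on each side in order of RefSeq start, 10 per cluster. Over all genes 13.4% rose and 10.2% fell in Net shRNA cells, 15.8% rose and 13.9% fell in Sap-1 shRNA cells, and 14.2% were higher and 13.3% lower in the direct comparison. Beside the Hoxb cluster, 4 of 10 rose and 0 fell in Net shRNA cells (median 0.11, range -0.02 to 0.46), and 2 rose and 0 fell in Sap-1 shRNA cells. The largest, Atp5g1, a subunit gene of the mitochondrial ATP synthase, was higher by 0.46 in Net shRNA cells and by 0.37 in Sap-1 shRNA cells, so no flanking gene reached the size of the Hoxb9 difference, and none was called in opposite directions. Beside the Hoxd cluster, 1 of 10 rose and 1 fell in Net shRNA cells and 0 rose and 3 fell in Sap-1 shRNA cells. The gene beside Hoxd1 at the anterior end, Mtx2, which encodes a mitochondrial outer membrane protein, fell by 0.50 in Net shRNA cells and by 0.30 in Sap-1 shRNA cells. In order of RefSeq start, Hoxd1 and the non-coding Haglr come between Mtx2 and Hoxd4 and were not called. Mir10b, which starts after Hoxd4 in that order, was called lower in Net shRNA cells (-0.15) at a dim level. Hoxd3 was not called in the fit reported. Its RefSeq entry starts between those of Hoxd8 and Hoxd4, while by paralog number it lies between Hoxd4 and Hoxd1. Beside the Hoxa cluster 3 rose and 1 fell in Net shRNA cells and 0 rose and 1 fell in Sap-1 shRNA cells, and beside the Hoxc cluster 0 rose and 2 fell in Net shRNA cells and 1 rose and 2 fell in Sap-1 shRNA cells. In the direct comparison the Hoxa flanks held 3 genes higher and 0 lower in Net shRNA cells (median 0.11), namely Skap2 (0.34), Cbx3 (0.25) and Hnrnpa2b1 (0.19), beside 0.27, 0.35 and 0.27 for Hoxa2, Hoxa6 and Hoxa7. The Hoxd flanks held 4 higher and 0 lower, the Hoxb flanks 1 higher and 0 lower and the Hoxc flanks 0 higher and 1 lower. When the median deviation of the 50 nearest well-measured other genes was taken off each array, a setting chosen after seeing the data, 2 Hox genes rose and 6 fell in Net shRNA cells and 0 rose and 11 fell in Sap-1 shRNA cells. In the direct comparison 8 were then higher and 1 lower in Net shRNA cells, with smaller differences for Hoxa2 (0.16), Hoxa7 (0.18, adjusted p = 0.019) and Hoxa6 (0.27, adjusted p = 0.0087). The calls of Hoxa3 in Net shRNA cells (0.13, adjusted p = 0.11) and of Hoxa4 in Sap-1 shRNA cells (0.18, adjusted p = 0.071) were lost there.

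**Figure D4:**
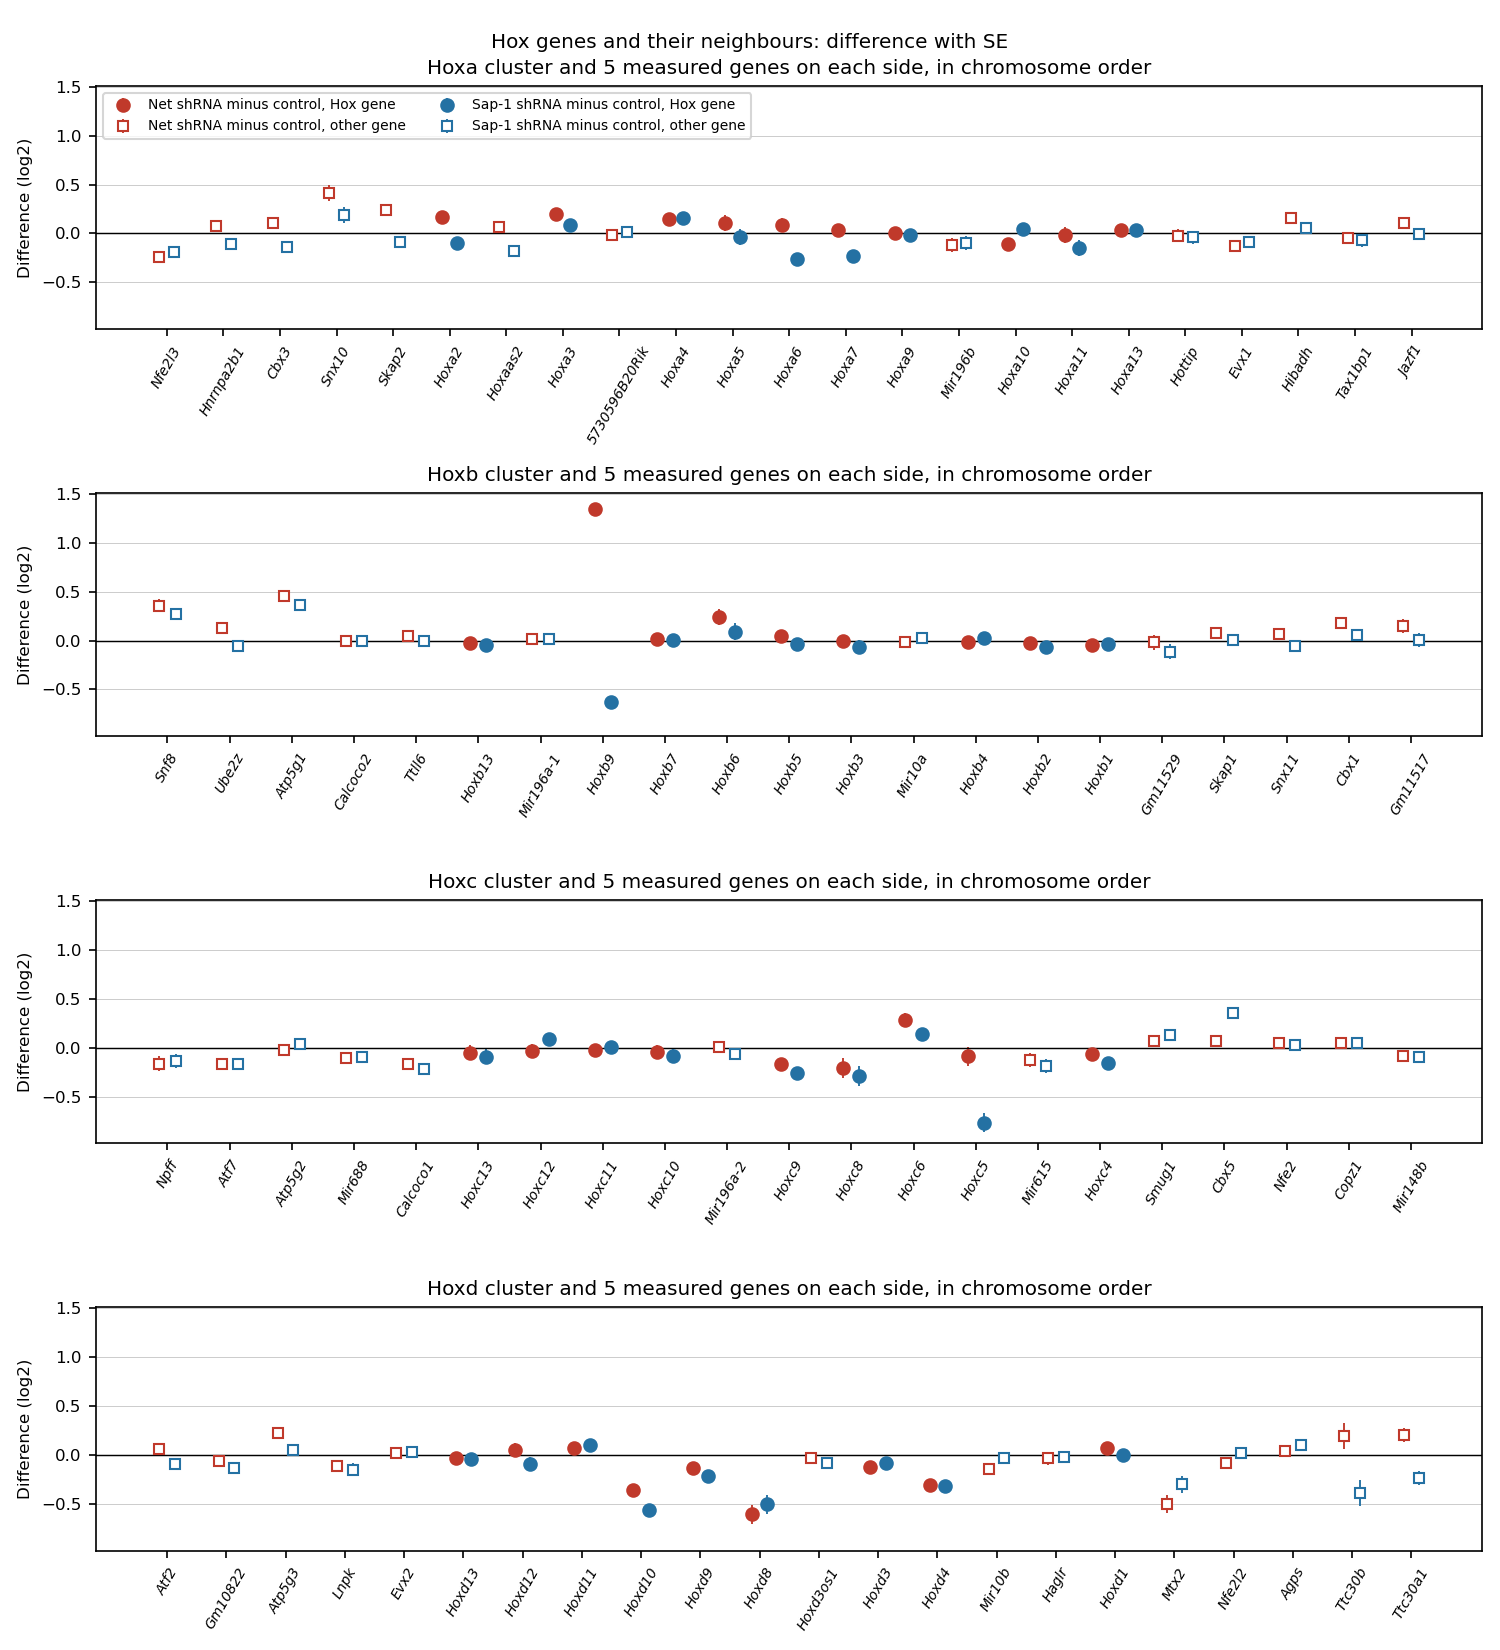
Log2 difference with its SE for the Hox genes (filled circles) and for non-coding and other genes within and on either side of each cluster (open squares), in chromosome order, for Net shRNA minus control (red) and Sap-1 shRNA minus control (blue). Hoxb9 stands alone among its neighbours at 1.35 and -0.63, and in this order of RefSeq start the Hoxd genes that fell lie between Hoxd11 and Mir10b.

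The clusters also hold non-coding genes, of which 10 of 18 listed were measured and 3 (Mir615, Hoxaas2 and Hoxd3os1) lay above the olfactory receptor range. The mature miRNAs of the miR-10 and miR-196 families are shown because both families lie within Hox clusters and act on Hox messages: miR-196 is known to direct cleavage of the Hoxb8 message in the mouse embryo, and miR-10b represses HOXD10 in human breast cancer cells. Sequences are from RefSeq (build GRCm38.p6), and capitals mark the seed, bases 2 to 8.
miR-10a-5p: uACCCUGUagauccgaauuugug
miR-10b-5p: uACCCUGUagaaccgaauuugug
miR-196a-5p: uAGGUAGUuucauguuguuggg
miR-196b-5p: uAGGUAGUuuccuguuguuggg
The members of each family share their seed. The array measures their precursors and host transcripts and not the mature forms. Mir10b, which lies beside Hoxd4, had mean levels of 4.14 in Net shRNA, 4.26 in Sap-1 shRNA and 4.29 in control cells and was called lower in Net shRNA cells (-0.15, adjusted p = 0.012), at a level deep within the olfactory receptor range. Mir10a, Mir196a-1, Mir196a-2 and Mir196b, at 4.14 to 6.35, and Mir615 were not called in any comparison. The antisense gene Hoxaas2, which lies between Hoxa2 and Hoxa3 in RefSeq order, fell by 0.18 in Sap-1 shRNA cells (adjusted p of 0.047) and was higher by 0.25 in Net shRNA than in Sap-1 shRNA cells (adjusted p = 0.011). That is the order of Hoxa2, though transcripts that overlap cannot always be told apart by probe sets. Evx1 and Evx2, homeobox genes at the posterior ends of the Hoxa and Hoxd clusters, were not called in any comparison.

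Hox proteins bind DNA with TALE homeodomain cofactors of the Pbx, Meis and Pknox families, and 8 of 9 such genes were measured, all above the olfactory receptor range. Among all genes above that range, 19.2% rose and 14.6% fell in Net shRNA cells, 22.6% rose and 19.1% fell in Sap-1 shRNA cells, and 38.8% were called in the direct comparison. In Net shRNA cells 2 rose (Pknox2, Pbx4) and 2 fell (Meis1, Pbx3), with a median of -0.07 over the 8. In Sap-1 shRNA cells 0 rose and 6 fell, with a median of -0.19, and in the direct comparison 2 were higher and 1 lower in Net shRNA cells. Pknox2 had 9.33, 9.35 and 9.30 in Net shRNA cells, 6.96, 7.13 and 7.10 in Sap-1 shRNA cells and 8.48, 8.64 and 8.64 in control cells. Its groups did not overlap and stood in the order of Hoxb9: it rose by 0.74 in Net shRNA cells (adjusted p = 6.2e-06), fell by 1.52 in Sap-1 shRNA cells (adjusted p of 1.0e-08), and differed by 2.26 between them (adjusted p = 3.6e-10). Meis1 fell by 0.51 in Net shRNA cells, and in Sap-1 shRNA cells Pbx3 fell by 0.28, Meis2 by 0.29 and Pbx2 by 0.15.

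The same background applies to the Polycomb and Trithorax lists, whose measured genes all lay above the range: 33.7% of such genes were called in Net shRNA cells and 41.7% in Sap-1 shRNA cells. Of 29 Polycomb genes, which keep Hox genes silent, 2 rose and 9 fell in Net shRNA cells (median -0.07) and 9 rose and 9 fell in Sap-1 shRNA cells (median 0.02). Eed, a core subunit of the complex that methylates histone H3, rose by 0.60 in Net shRNA cells, and Pcgf3 fell by 0.41. In Sap-1 shRNA cells Pcgf5 rose by 0.69, and Phf1 fell by 0.66 and Pcgf1 by 0.52. Of 20 Trithorax and MLL group genes, which keep Hox genes active, 2 rose and 8 fell in Net shRNA cells (median -0.07) and 4 rose and 6 fell in Sap-1 shRNA cells (median -0.04). Aff1, an elongation factor gene that is fused to the MLL gene in human leukaemia, fell by 0.54 in Net shRNA cells and by 0.57 in Sap-1 shRNA cells. Setd1b, a histone methyltransferase, fell by 0.48 in Net shRNA cells and by 0.28 in Sap-1 shRNA cells. In the direct comparison 3 Polycomb genes were higher and 8 lower in Net shRNA cells, and 2 Trithorax genes were higher and 6 lower.

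Retinoic acid is a classical inducer of anterior Hox genes. Beside 23.6%, 29.7% and 27.5% of all genes called in the 3 comparisons, of 19 genes of its pathway 2 rose and 4 fell in Net shRNA cells, 3 rose and 5 fell in Sap-1 shRNA cells, and 2 were higher and 4 lower in Net shRNA than in Sap-1 shRNA cells, with list medians between -0.06 and 0.04. Cyp26b1, which breaks down retinoic acid, had 10.74, 10.84 and 10.78 in Net shRNA cells, 9.38, 9.37 and 9.30 in Sap-1 shRNA cells and 9.51, 9.44 and 9.68 in control cells. It rose by 1.24 in Net shRNA cells (adjusted p = 1.3e-07). Aldh1a1, which makes retinoic acid, had 8.38, 8.65 and 8.46 in Net shRNA cells, 9.24, 9.30 and 9.55 in Sap-1 shRNA cells and 7.84, 7.90 and 7.88 in control cells. It rose in both knockdowns, by 0.63 in Net shRNA cells and by 1.49 in Sap-1 shRNA cells (adjusted p = 2.1e-07). Rdh10, which makes the retinal that Aldh1a1 uses, fell by 0.41 in Net shRNA cells and fell by 0.45 in Sap-1 shRNA cells. Of 14 other upstream regulators 1 rose and 3 fell in Net shRNA cells and 0 rose and 2 fell in Sap-1 shRNA cells, with Gli3, a Hedgehog pathway factor, falling by 0.25 in Net shRNA cells and by 0.49 in Sap-1 shRNA cells.

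Other transcription factors of limb and body position were set beside the Hox genes. Over all genes, 13.4% rose and 10.2% fell in Net shRNA cells, and 15.8% rose and 13.9% fell in Sap-1 shRNA cells. In the direct comparison 14.2% of all genes were higher and 13.3% lower in Net shRNA cells. Of 38 measured, 2 rose and 10 fell in Net shRNA cells (median -0.03), and 1 rose and 13 fell in Sap-1 shRNA cells (median -0.07). Eya1 fell by 0.79 in Net shRNA cells and by 0.68 in Sap-1 shRNA cells, and Foxf1, a factor of visceral mesenchyme, rose by 0.62 in Net shRNA cells and by 0.73 in Sap-1 shRNA cells. Tbx15 fell by 0.68 and Tbx3, a limb gene, by 0.74 in Sap-1 shRNA cells. In the direct comparison 6 were higher and 3 lower in Net shRNA cells. Of 19 genes reported elsewhere as Hox targets in mesenchyme, 4 rose and 2 fell in Net shRNA cells (median -0.03), 5 rose and 7 fell in Sap-1 shRNA cells (median -0.06), and 8 were higher and 5 lower in Net shRNA than in Sap-1 shRNA cells. Above the olfactory receptor range lay 16 of these 19 genes and 30 of the 38 positional genes. Of all genes above that range, 33.7%, 41.7% and 38.8% were called in the same 3 comparisons. Epha7, an ephrin receptor, rose by 3.01 in Net shRNA cells and by 2.69 in Sap-1 shRNA cells. Sfrp1, a secreted Wnt inhibitor, rose by 0.83 in Net shRNA cells and fell by 1.36 in Sap-1 shRNA cells, with a direct difference of 2.19. Wnt5a fell by 1.02 and Fgf10 rose by 0.95 in Sap-1 shRNA cells. A link between any Hox gene and these genes was not tested.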

How the data were processed

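The authors deposited 1 table of log2 expression values for 28815 probe sets on 9 arrays, made by RMA with the Affymetrix Expression Console (per the labels' tool list, the submitters' processing notes), with the version and the genome build not given in the sources used here. RMA normalized the arrays together, so only relative differences can be read. Symbols came from the platform annotation: 21780 probe sets had 1 symbol, 1605 had several and 5430 had none. Each of 19935 genes was represented by its probe set of highest mean. limma 3.58.1 (R 4.3.3) fitted all 9 arrays with 3 group means and no covariate, and p-values were adjusted by Benjamini-Hochberg over all genes within each comparison. The script was tested on simulated data. Hox genes with a group mean above the olfactory receptor range, or called with at least 1.5-fold change, were written out on every array. From each gene list, examples came from its called members with the lowest adjusted p. Members and lists were chosen with earlier results of these data known, so no list supports another result. Alternatives changed the normalization, variance model, array weights, filters, probe set choice, threshold, replicate block and the arrays included.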

Additional observations from a re-analysis of the deposited data

Results flagged for a closer look

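For 6 Hox genes the effect of the Net shRNA differed from that of the Sap-1 shRNA by the direct test of the 2 knockdowns (limma, adjusted p under 0.05), each higher in Net shRNA cells. The log2 difference was 1.98 for Hoxb9, 0.68 for Hoxc5, 0.35 for Hoxa6, 0.27 for Hoxa2, 0.27 for Hoxa7 and 0.20 for Hoxd10. These 6 made up 16.2% of the Hox genes, where 27.5% of all genes were called. They are not 1 pattern in the fit reported. Hoxb9 was called in opposite directions against control, and Hoxc5, Hoxa6 and Hoxa7 were called lower in Sap-1 shRNA cells alone. Hoxd10 fell in both knockdowns, and Hoxa2 was called in neither comparison with control in that fit. Beside the Hoxa cluster 3 of 10 flanking genes were also higher in Net shRNA cells, and with the deviation of neighbouring genes taken off the Hoxa differences were 0.16 for Hoxa2, 0.27 for Hoxa6 and 0.18 for Hoxa7. What accounts for the differences was not tested.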

How the results depend on the processing

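The 24 called Hox differences were recomputed under 22 other settings, giving 517 values, since genes below a filter were not tested there. Of these, 487 were still called. For 17 of the 24 differences the call was kept in every setting that tested the gene. Among them were all those of Hoxb9, Hoxc5, Hoxd4, Hoxd8, Hoxd10, Hoxa7 and Hoxa2. None reversed, but changes of variance model, replicate block, filter, probe set choice or threshold cannot alter a Hox log2 difference. In those settings only the call could change. The count for Sap-1 shRNA against control, 11 in the fit reported, was 6 among genes above the median level, where fewer Hox genes were tested, and 7 at an adjusted p under 0.01. With array weights, 11 Hox genes were called for Net shRNA against control and 11 for Net shRNA against Sap-1 shRNA. Leaving out each array in turn gave 5 to 8, 9 to 11 and 6 to 8 calls for Net shRNA against control, Sap-1 shRNA against control and the direct comparison. Hoxa6 in Sap-1 shRNA cells lost its call at the stricter threshold alone. Same-numbered arrays did not deviate together throughout (r of -0.11 to 0.36, and -0.43 to 0.30 for arrays of different numbers). The replicate 1 arrays all correlated positively between groups (0.17 to 0.36), and replicates 2 and 3 gave -0.11 to 0.26. This check did not settle whether replicates share an effect, and the numbers were not taken as pairs in the fit reported. The replicate block gave 10, 12 and 7 calls, which held all 7, 11 and 6 of the fit reported. Neighbour removal, added after seeing the data, gave 8, 11 and 9 calls. Dim probe sets near the olfactory receptor range limit what can be read for 13 Hox genes.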
